A study of Mus musculus with 2 samples.

Results

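The 38 genes described here encode the enzymes of glycolysis, the enzymes that regulate it, the core enzymes of the pentose phosphate pathway, and the hypoxia-inducible factors with their oxygen sensors and a few of their target genes. They were chosen by name, as a list of 38 symbols, among 27037 genes with a named probe on the arrays. All 38 had at least 1 probe, and together they had 58 probes. Of the 38, 37 passed the filter on dim signals described below. The list fixed no direction.

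Glycolysis splits glucose into pyruvate in the cytosol, and lactate dehydrogenase can turn pyruvate into lactate. The pentose phosphate pathway branches off at glucose 6-phosphate and makes NADPH and ribose 5-phosphate. Phagocytes use NADPH both to form superoxide and to keep glutathione reduced. Hypoxia-inducible factors are transcription factors whose alpha subunits are hydroxylated by prolyl hydroxylases when oxygen is present and are then degraded. When oxygen is low they switch on genes of glucose uptake, glycolysis and vessel growth. The epithelium of the colon lies close to a lumen that holds little oxygen.

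Arrays read in 2 colours compared 2 pools of sorted mouse cells. The colon pool held CX3CR1high CD11b+ CD11c+ cells of the lamina propria of the large intestine, from CX3CR1gfp/+ mice, which carry green fluorescent protein in place of 1 allele of the chemokine receptor gene Cx3cr1. The blood pool held Ly6c+ CD11b+ monocytes from C57BL/6J mice. In the design text n is 10 for CX3CR1high cells and 6 for monocytes, and what n counts is left unsaid. No treatment, age or sex is given in the sources used here, and the pools therefore differ in tissue, sorted phenotype and Cx3cr1 genotype at once, which cannot be told apart.

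Both pools were hybridised together on 2 arrays with the dyes exchanged. The 2 arrays count as 1 replicate of each pool, since both name the same pools. No p-value was therefore computed, and an SD given below covers technical error alone. Ratios are log2 values, colon pool over blood pool, after loess normalization within each array, averaged over both arrays. Levels are normalized fluorescence intensities of a probe on a linear scale, given for array 1 and then array 2, and they compare the pools and not different genes. A gene counted as measured if at least 1 pool had the scanner software's flag for signals well above background on array 1 and array 2 alike. It was called higher or lower in the colon pool if both arrays showed a change of 2-fold or more one way and the brighter pool had the flag on both.

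Each array held 43020 probe spots, none of them saturated, and 52.9% to 59.6% of them were well above background in a pool. The ratios of the 2 arrays correlated with r = 0.968 across the 15609 measured genes, as a description across genes, which are not independent. The median SD between arrays was 0.10 for the measured genes of the list and also for all measured genes. Among markers of the sorted phenotypes, 5 of 8 macrophage markers were called higher and all 8 Ly6C-high monocyte markers were called lower in the colon pool. Itgax, which encodes CD11c, had a ratio of 3.35, and Ly6c1 one of -3.28. Itgam, which encodes CD11b, had -0.46 and Cx3cr1 had 0.10. Markers of other cells were read as well. Of the measured markers, 10 of 11 of fibroblasts and smooth muscle, 9 of 11 of epithelium, 7 of 9 of T cells and 7 of 8 of B and plasma cells were called higher, and none lower. Endothelial markers gave 2 of 8 higher, erythroid and platelet markers 1 of 7 higher and 3 lower, and neutrophil markers 2 of 10 lower. Of all measured genes, 14.2% were called higher and 4.48% lower. The summed intensity of the fibroblast and smooth muscle list was 118729 and 127676 in the colon pool, against 2185 and 2127 in the blood pool, where Pdgfra, Myh11 and Des were not well above background on either array. The summed epithelial list reached 7486 and 6574 in the colon pool, against 1164 and 951 in the blood pool, where Epcam, Krt19, Krt20, Vil1 and Muc2 were not well above background. The T cell list summed to 10394 and 9315 in the colon pool, against 2224 and 1739 in the blood pool, where Cd3g and Cd8a were not well above background. The B and plasma cell list summed to 35181 and 36090 in the colon pool, against 2503 and 2534 in the blood pool, where Cd79a and Pax5 were not well above background. Such sums are weighted towards the brightest probes, and Jchain alone read 28991 and 29942 in the colon pool. Cd8a and Pax5 were not well above background in the colon pool either. Their part in the results below was not tested. In pooled RNA, fewer cells of a type and less RNA per cell cannot be told apart.

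Of the 37 measured genes, 5 were called higher in the colon pool (13.5%), against 14.2% of all 15609 measured genes. Another 5 were called lower (13.5%), against 4.48% of all measured genes. The 10 calls amount to 27.0% of the list, against 18.7% of all measured genes in either direction. The 5 higher genes were Pfkfb3, Adm, Eno2, Aldoc and Hk2, and the 5 lower genes were G6pdx, Eno3, Ldhb, Pgd and Taldo1. The median ratio of the 37 genes was -0.07, with quartiles of -0.73 and 0.34, and that of all measured genes was 0.06, with quartiles of -0.31 and 0.59. With each array centred on its median in place of loess, the median of all genes was -0.28 and that of the list -0.65. The scanner software's own ratios gave medians of -0.12 for all genes and -0.40 for the list.

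**Figure D1:**
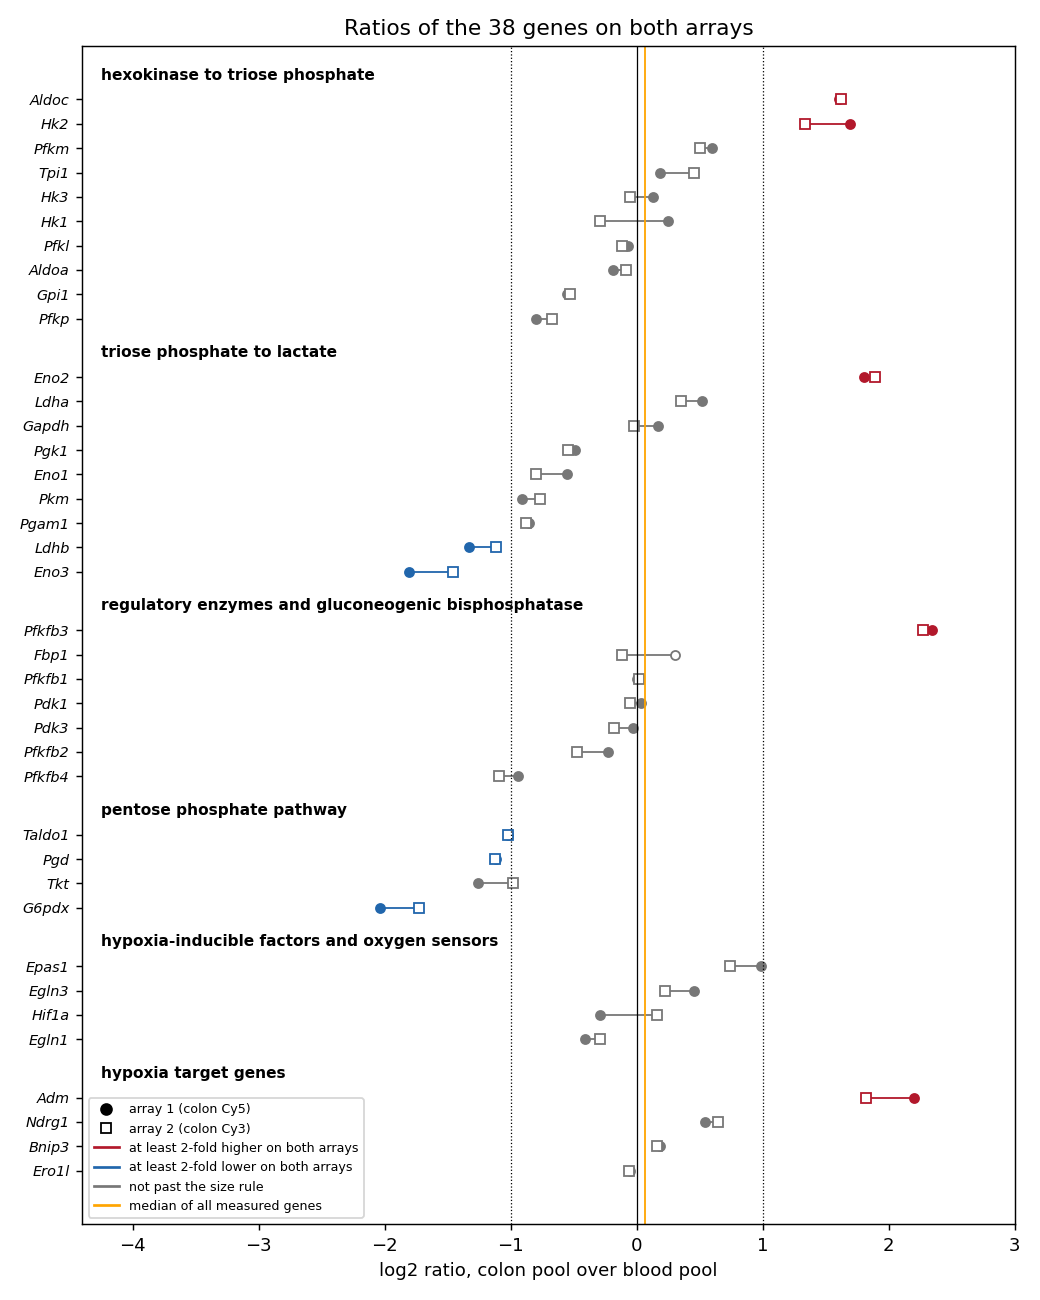
Log2 ratio (colon pool over blood pool) for each of the 38 genes, grouped by role, with array 1 as a filled circle, array 2 as an open square and a line between them. Dotted lines mark the 2-fold size on either side of 0, the orange line is the median of all measured genes, red genes were called higher and blue genes lower in the colon pool, and the open circle belongs to Fbp1, which was not measured. The 4 pentose phosphate genes all lie left of 0, and Pfkfb3 lies at 2.35 and 2.28.

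Of the 4 pentose phosphate genes, 3 were called lower in the colon pool and none higher, against 4.48% lower among all measured genes, and their median ratio was -1.12. G6pdx, the X-linked glucose-6-phosphate dehydrogenase that commits glucose 6-phosphate to the pathway, had the lowest ratio of the measured genes with loess, whereas the dim Pfkfb2 lay lower with the scanner software's ratios, at -2.12 against -2.01. Its intensity was 2883 and 3316 in the colon pool, against 11811 and 10973 in the blood pool. That gave a ratio of -1.88 ± 0.22 (SD over 2 arrays), and it was -2.63 under median centring.

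Pgd encodes 6-phosphogluconate dehydrogenase, which makes the second NADPH of the oxidative branch. It read 6069 and 5433 in the colon pool, against 13138 and 11819.6 in the blood pool, a ratio of -1.12 on average with an SD of 0.005. In the non-oxidative branch, which returns pentoses to glycolysis, 1 of the 2 listed genes passed. Taldo1, transaldolase, read 29674 and 26961 in the colon pool, against 60348 and 54737 in the blood pool. Its ratio of -1.02 with an SD of 0.002 lay just inside the rule on both arrays.

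Tkt, transketolase, lay just outside the rule. It read 14108 and 13809 in the colon pool, against 33726 and 27289.9 in the blood pool. Its ratios were -1.26 on array 1 and -0.98 on array 2, with a mean of -1.12 ± 0.19. In all 4 pentose phosphate genes the ratio was negative under each of the 10 other settings of background, scaling, filter, probe choice and array that were run. Under median centring, Pgd and Taldo1 lost the call because their 2 arrays moved apart, to -0.79 and -2.96 for Pgd and to -0.62 and -3.08 for Taldo1.

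Of the other pentose phosphate enzymes, 8 of 8 were measured, with a median ratio of -0.48. Only 1 was called lower (12.5%, against 4.48% of all measured genes) and none higher. The called gene was Rbks, ribokinase, which phosphorylates free ribose. It read 680 and 727 in the colon pool, against 3207 and 3208 in the blood pool, a ratio of -2.19 ± 0.07. Rpe and Rpia interconvert the pentose 5-phosphates, and their ratios of -0.96 and -0.80 did not pass. Prps1 and Prps2, which make phosphoribosyl pyrophosphate from ribose 5-phosphate, had ratios of 0.44 and 0.28.

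Along the 19 enzymes of the glycolytic chain, 3 were called higher (15.8%, against 14.2% of all measured genes) and 2 lower (against 4.48% of all measured genes), with a median ratio of -0.09. The higher share was near that of all genes. Several steps have isoenzymes, that is, different genes for the same reaction. In the upper chain, from hexokinase to triose phosphate, 2 of 10 genes were called higher (20.0%) and none lower. Hexokinases trap glucose in the cell as glucose 6-phosphate. Hk2, the isoenzyme that is strongly regulated in many tissues, read 3089.8 and 2638 in the colon pool, against 957 and 1044 in the blood pool. Its ratio was 1.51 ± 0.25. Under median centring it lost the call, with 1.96 on array 1, -0.28 on array 2 and a mean of 0.84. Hk1 had a ratio of -0.02 ± 0.38, the largest SD of the list, with 0.25 on array 1 and -0.29 on array 2. Hk3, a hexokinase of myeloid cells, had a ratio of 0.04.

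Aldolases split fructose 1,6-bisphosphate. Aldoc, known best from brain, read 797 and 679 in the colon pool, against 262 and 220.1 in the blood pool. Its ratio was 1.61 ± 0.02, and median centring ended the call, with 1.87 on array 1 and 0.40 on array 2. The ubiquitous Aldoa read 28725 and 31774 in the colon pool, against 32769 and 33636 in the blood pool, a ratio of -0.14 ± 0.08, so the aldolase genes had unequal ratios. The 3 phosphofructokinase subunits, which carry out the committed step, had ratios of 0.55 for Pfkm, -0.09 for Pfkl and -0.73 for Pfkp, and none passed. A second, dimmer Pfkp probe had -0.07 and was well above background on 1 array in the colon pool and 2 in the blood pool. Gpi1, glucose-6-phosphate isomerase, had -0.54. Its 3 probes, which share a stretch of 40 of their 60 bases, gave -0.54, -0.53 and -0.52. Tpi1, triose phosphate isomerase, had 0.32 with loess and -0.42 with median centring.

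From triose phosphate to lactate, 1 of 9 genes was called higher (11.1%, against 14.2% of all measured genes). Another 2 were called lower (22.2%, against 4.48% of all measured genes), and the median ratio was -0.68. Enolases make phosphoenolpyruvate, and their 3 genes differed in direction. Eno2, the gamma enolase known from neurons, read 387 and 298 in the colon pool, against 111 and 80.3 in the blood pool, a ratio of 1.85 ± 0.06, which was 2.76 with the scanner software's ratios. Eno3, the beta enolase known from muscle, read 683 and 764 in the colon pool, against 2393 and 2100.2 in the blood pool, a ratio of -1.63 ± 0.25, which was -2.29 under median centring. Eno1, the widespread alpha enolase, read 15345 and 13601 in the colon pool, against 22557 and 23680.1 in the blood pool. Its ratio of -0.68 ± 0.17 did not pass. No colon value overlapped a blood value in any of the 3 enolase genes, but these are 2 technical readings of each pool. The share of all genes without such overlap was not counted.

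Lactate dehydrogenase is made of A and B subunits. Ldhb read 829 and 912 in the colon pool, against 2085 and 1977 in the blood pool, and its ratio of -1.22 ± 0.15, or -1.89 under median centring, passed the rule. Ldha read 37228 and 36908 in the colon pool, against 25983 and 28932 in the blood pool. Its ratio of 0.44 ± 0.12 did not pass, and it turned to -0.39 under median centring. Gapdh, the dehydrogenase often used as a housekeeping gene, had a ratio of 0.07 with loess and -0.77 with median centring, and its 7 probes ranged from -0.06 to 0.33. The remaining enzymes of the lower chain, Pgk1, Pgam1 and Pkm, had ratios of -0.52, -0.87 and -0.84. They stayed below 0 under all 10 settings and did not pass the rule.

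**Figure D2:**
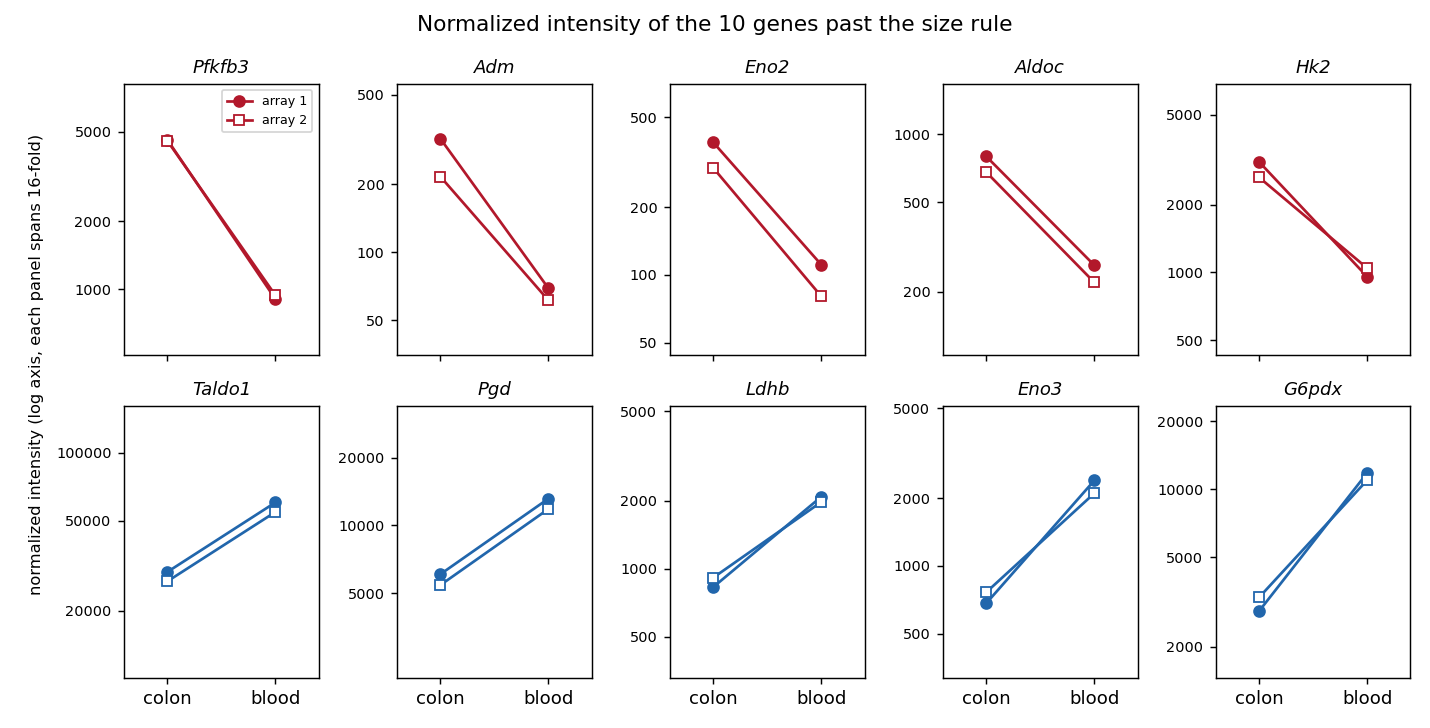
Normalized intensity (log axis, 16-fold per panel) of the 10 called genes, with the colon pool left of the blood pool and a line joining both pools on each array (array 1 filled circles, array 2 open squares; red higher and blue lower in the colon pool). In each of the 10 genes both colon points lie on the same side of both blood points, which the call rule makes nearly certain. The blood points of Adm were not well above background.

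Pfkfb3 was called higher. It encodes a 6-phosphofructo-2-kinase with high kinase activity, whose product fructose 2,6-bisphosphate activates phosphofructokinase. It read 4603 and 4553 in the colon pool, against 905 and 940.2 in the blood pool. The ratio was 2.31 ± 0.05, or 4.96-fold. With loess and a background offset of 50, Pfkfb3 was the only gene of the list past 4-fold on each array. With loess and an offset of 16, or without background correction, Adm and Eno2 were past 4-fold on each array too. Under median centring Pfkfb3 lost the call, with 2.62 on array 1, 0.62 on array 2 and a mean of 1.62. Its place among the higher genes also depended on the setting, since Adm, at 5.07, and Eno2, at 2.76, exceeded its 2.29 with the scanner software's ratios. Adm also lay above Pfkfb3 with loess and an offset of 16. A second, dimmer Pfkfb3 probe read 294 and 272 in the colon pool, against 108 and 99.1 in the blood pool, a ratio of 1.45.

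The other members of this enzyme family did not share that direction. Pfkfb4 read 2581 and 2419 in the colon pool, against 4969 and 5163 in the blood pool. Its ratios were -0.94 on array 1 and -1.09 on array 2, a mean of -1.02 ± 0.11 just outside the rule. A second Pfkfb4 probe, not well above background in either pool, had -0.12. Pfkfb1 read 112 and 139 in the colon pool, against 112 and 137 in the blood pool, and its ratio was 0.01. Pfkfb2 read 79.4 and 75.6 in the colon pool, well above background on 1 array, against 93.2 and 104.9 in the blood pool, well above background on both, and its ratio was -0.35. Fbp1, the fructose bisphosphatase of gluconeogenesis, was not measured, since it read 81.0 and 71.7 in the colon pool, against 65.6 and 77.7 in the blood pool. The pyruvate dehydrogenase kinases, which hold pyruvate back from the mitochondrion, had ratios of -0.01 for Pdk1 and -0.10 for Pdk3.

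Among the hypoxia-inducible factors and oxygen sensors, none of 4 genes passed the rule, against 18.7% of all measured genes in either direction. Hif1a read 774 and 916 in the colon pool, against 946 and 821 in the blood pool, so the pools overlapped, and its ratio was -0.07 ± 0.32. Egln1, the main prolyl hydroxylase, had a ratio of -0.35 at intensities of 88.4 and 99.8 in the colon pool, against 117.7 and 122.1 in the blood pool. Egln3, a prolyl hydroxylase that is itself a hypoxia target, had a ratio of 0.34. These values describe transcripts, and the alpha subunits are controlled mainly as proteins.

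Epas1, which encodes the alpha subunit HIF-2α, had 3 probes that differed in size. The brightest, which represented the gene, read 3519 and 3273 in the colon pool, against 1776 and 1958 in the blood pool. Its ratio of 0.86 ± 0.17 did not pass. A second probe, nearer to the end of the transcript, read 2815 and 2493 in the colon pool, against 247 and 256 in the blood pool, a ratio of 3.40. The third probe read 162.1 and 150.1 in the colon pool and, at 75.1 and 68.4, lacked the background flag in the blood pool, with a ratio of 1.12. With the mean over probes the gene passed, at 1.79. The first 30 bases of the 60-base probes are shown with those of Pfkfb3, because for both genes the choice of probe set the value. The stretches are those of the array design, read 5′ to 3′, and no letters are set in capitals.
Epas1, first probe, chr17:87230678-87230737, plus strand: aaagtgttctgaaattttataagatttccc
Epas1, second probe, chr17:87232615-87232674, plus strand: tcctgtccatgtaacaacttcatgaccatt
Epas1, the third probe, chr17:87230587-87230646, plus strand: ccaagcagtggcctttatctgacatgctca
Pfkfb3, first probe, chr2:11393453-11393512, minus strand: tcctttcagacatctgtgtagtttgcagtt
Pfkfb3, second probe, chr2:11404189-11405602, minus strand: cactgcgtgaacaggacaagtactactatc
The positions are those the array files give, on mouse build mm9. No annotation of that build was used here, so the exons or untranslated regions they fall in are not given. The first and the third Epas1 probes start at bases 3279 and 3188 of the transcript and the second at base 5216. The longest run of only C and T is 22 bases in the first Epas1 probe and 5 in each of the other two. The part of probe sequence in the differing ratios was not tested.

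**Figure D3:**
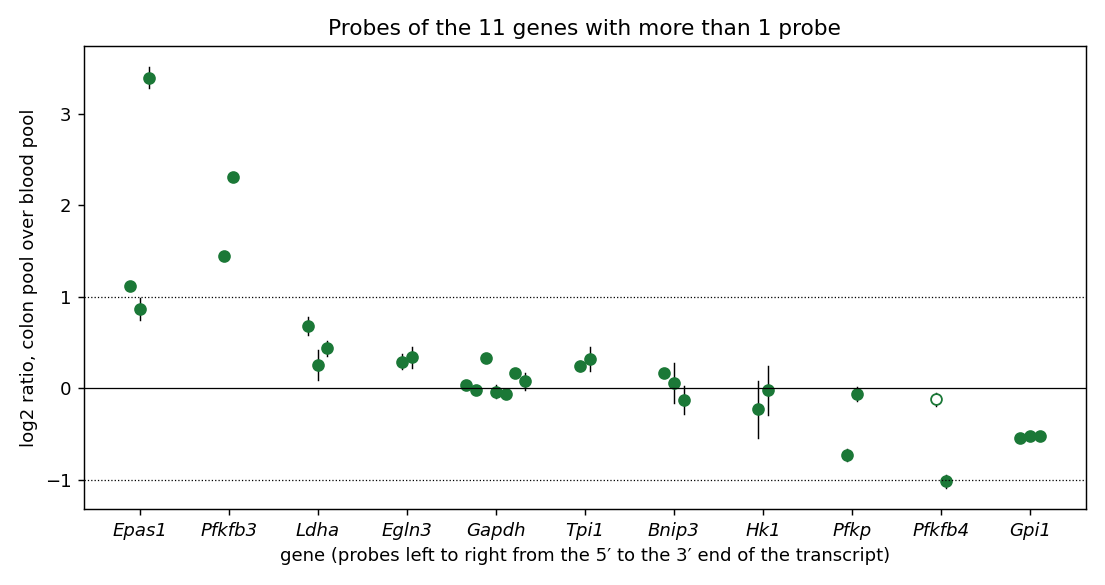
Log2 ratio (colon pool over blood pool) for each probe of the 11 genes with more than 1 probe, ordered within a gene from the 5′ to the 3′ end of the transcript, with points at the mean of the 2 arrays, bars from one array's value to the other's, and an open point for a probe not well above background in either pool. The Epas1 probes spread from 0.86 to 3.40, whereas the 7 Gapdh probes lie between -0.06 and 0.33.

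Of the 4 hypoxia target genes in the list, 1 was called higher (25.0%, against 14.2% of all measured genes) and none lower. Adm encodes adrenomedullin, a vasodilator peptide. It read 319.5 and 216.8 in the colon pool, whereas the blood pool was not well above background on either array at 69.3 and 61.3. The measured ratio was 2.01 ± 0.27, with 2.20 on array 1 and 1.82 on array 2. For a second estimate, a blood signal below the lowest signal that counts as above background was raised to that signal. This gave 4.01-fold, which is close to the measured ratio and is not a lower limit. The scanner software's ratios gave 5.07. The 4.01-fold estimate compares means of normalized log2 signals of both pools.

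Ndrg1, a stress-responsive gene, read 4884 and 5122 in the colon pool, against 3354 and 3282 in the blood pool. Its ratio of 0.59 ± 0.07 did not pass and turned to -0.14 under median centring. Bnip3, which marks mitochondria for mitophagy, had a ratio of 0.17 with loess and -0.51 with median centring. Ero1l, now named Ero1a, an oxidase of the endoplasmic reticulum, had a ratio of -0.06 at intensities of 116.8 and 134.8 in the colon pool, against 121.2 and 140.4 in the blood pool.

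A longer list of 24 hypoxia target genes, which includes Pfkfb3, was read beside these. Of its 23 measured genes 10 were called higher (43.5%, against 14.2% of all measured genes) and none lower, with a median ratio of 0.96. Without Pfkfb3, 9 of 22 were called higher. The longer list holds no enzyme of the glycolytic chain, although hypoxia-inducible factors also switch on genes of glycolysis. Of the 19 enzymes of that chain, 3 were called higher and 2 lower, with a median ratio of -0.09. The share of 43.5% therefore describes the longer list and not hypoxia targets at large. Hilpda, a lipid droplet protein that blocks lipolysis, read 10766 and 11669 in the colon pool, against 799.8 and 820.0 in the blood pool, a ratio of 3.79 ± 0.06.

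Vegfa, the vascular growth factor, had a ratio of 2.13 ± 0.26, and P4ha1, a subunit of the enzyme that hydroxylates collagen, one of 1.16 ± 0.13. P4ha2, a related gene, read 728 and 538 in the colon pool, whereas the blood pool lacked the background flag at 71.7 and 52.8. Its measured ratio was 3.35, or 10.2-fold, and rests on that dim blood signal. Hmox1, heme oxygenase, read 30497 and 34573 in the colon pool, against 1362 and 4947 in the blood pool, whose arrays differed, and its ratio was 3.65 ± 1.19. Bnip3l and Ddit4, further targets, had ratios of -0.99 and -0.57 and did not pass. Immediate early and heat shock genes respond to handling of cells among other stimuli. Of 14 measured, 9 were called higher (64.3%, against 14.2% of all measured genes), none lower, and 4 ratios were below 0. Their intensities summed to 250618 and 270976 in the colon pool, against 83492 and 89458 in the blood pool. The part of these genes and of the fibroblast and other markers above in the hypoxia targets was not tested.

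**Figure D4:**
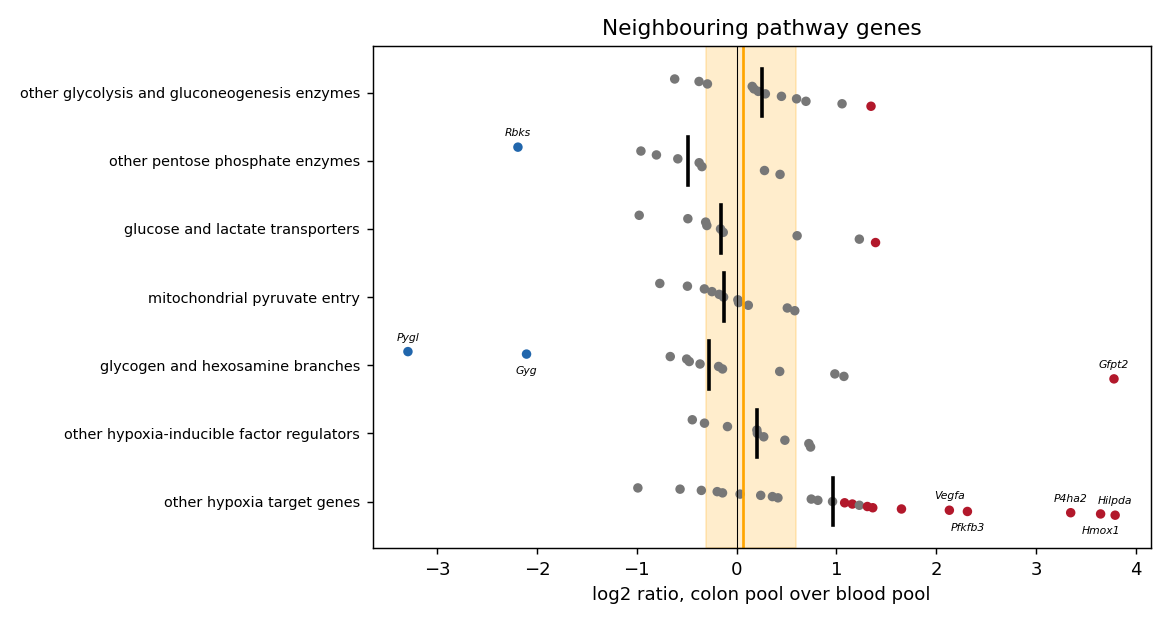
Log2 ratio (colon pool over blood pool) for measured genes of 7 further lists, with 1 point per gene, red where called higher and blue where called lower, and a black bar at each list's median. The orange line and band mark the median of 0.06 and the quartiles of all measured genes, and the other hypoxia target genes reach 3.79 for Hilpda.

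Further genes around glycolysis were mostly not called, and of all measured genes 18.7% were called in either direction. Of 12 measured enzymes of glycolysis and gluconeogenesis outside the 38, only Pcx, pyruvate carboxylase, passed, with a ratio of 1.35 ± 0.03, and the median was 0.25. Glucose and lactate carriers gave 1 of 9 higher and none lower. That was Slc2a8, a glucose carrier of inner membranes, at 1.39 ± 0.05. Slc2a1, the main glucose carrier of many cells, read 5033 and 4513 in the colon pool, against 1714 and 2412 in the blood pool, and its ratios of 1.55 and 0.90 kept it outside the rule. Slc2a6 had -0.98 ± 0.19. None of the 11 genes of pyruvate entry into mitochondria passed, and none of the 9 measured regulators of the hypoxia-inducible factors did.

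Branches from glucose 6-phosphate and fructose 6-phosphate gave 1 higher and 2 lower of 12 genes. These shares were 8.33% and 16.7%, against 14.2% and 4.48% of all measured genes. Pygl, the liver-type glycogen phosphorylase that is also found in phagocytes, read 2308 and 2338 in the colon pool, against 24981 and 20708 in the blood pool, a ratio of -3.29 ± 0.20. Gyg, the glycogenin that primes glycogen, had -2.10 ± 0.08. Gfpt2, which starts hexosamine synthesis, read 1131.5 and 944 in the colon pool, against 89.2 and 63.5 in the blood pool, a ratio of 3.78 ± 0.16, and its relative Gfpt1 had 1.07 ± 0.16 without passing. The summed fibroblast and smooth muscle markers, given above, moved in the same direction as Gfpt2, and their part in it was not tested.

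Promoters of the genes were searched for the core of the hypoxia response element. RefSeq windows of build GRCm38.p6, from 250 bases before to 50 after a gene's start, matched 36 of the 38 genes. The motifs were ACGTG and GCGTG on both strands, where CACGTG, the E-box that other factors also read, contains the first motif on each strand and was counted as 1 place. Some genes had more than 1 window, and a gene was counted if any of its windows held a place. At least 1 place was found in 32 of the 36 genes (88.9%), against 12628 of 27025 genes in all (46.7%). By window, 42 of 55 held a place (76.4%), against 14380 of 32851 windows in all (43.8%). The windows of the list had a median GC content of 57.3%, against 52.7% for all windows, and the motifs contain CG. Of the called genes, 4 of 5 higher and 5 of 5 lower had a place, and of those not past the rule 23 of 26 did, so genes of both directions held it. For 4 genes, 1 window each is shown to set higher and lower genes side by side, with the places in capitals.
Pfkfb3, higher, chr2:11502041-11502340, minus strand: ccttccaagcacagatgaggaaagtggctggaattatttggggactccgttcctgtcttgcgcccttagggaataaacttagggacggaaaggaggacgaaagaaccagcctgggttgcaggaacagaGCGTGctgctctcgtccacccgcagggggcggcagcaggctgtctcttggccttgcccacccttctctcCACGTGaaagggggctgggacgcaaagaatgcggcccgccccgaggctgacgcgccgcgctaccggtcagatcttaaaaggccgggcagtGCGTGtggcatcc
Hk2, higher, chr6:82774405-82774704, minus strand: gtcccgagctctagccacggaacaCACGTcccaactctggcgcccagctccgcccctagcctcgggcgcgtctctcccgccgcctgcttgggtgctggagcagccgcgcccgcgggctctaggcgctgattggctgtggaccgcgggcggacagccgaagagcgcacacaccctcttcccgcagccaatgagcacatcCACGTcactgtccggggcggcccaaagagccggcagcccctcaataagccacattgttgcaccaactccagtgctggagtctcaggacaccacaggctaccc
Eno2, higher, chr6:124769624-124769923, minus strand: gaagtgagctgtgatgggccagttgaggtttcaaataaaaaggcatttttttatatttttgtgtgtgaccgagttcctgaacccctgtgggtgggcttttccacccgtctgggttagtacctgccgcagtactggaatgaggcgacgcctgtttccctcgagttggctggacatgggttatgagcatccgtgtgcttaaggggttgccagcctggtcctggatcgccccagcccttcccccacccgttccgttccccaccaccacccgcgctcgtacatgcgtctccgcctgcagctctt
G6pdx, lower, chrX:74428831-74429130, minus strand: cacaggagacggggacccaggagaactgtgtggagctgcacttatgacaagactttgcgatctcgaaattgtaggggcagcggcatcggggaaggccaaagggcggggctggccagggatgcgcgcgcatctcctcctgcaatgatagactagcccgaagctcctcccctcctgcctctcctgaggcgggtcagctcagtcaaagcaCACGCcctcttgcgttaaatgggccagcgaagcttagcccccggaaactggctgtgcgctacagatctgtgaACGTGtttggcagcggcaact
The Pfkfb3 window shown holds 3 places, 1 of them the E-box, and the Hk2 and G6pdx windows hold 2 each. Another Pfkfb3 window, not shown, holds 1 place. The Eno2 window holds none, which says only that these letters are not in it. A match describes the sequence and is not a measured binding site.

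Other ways of processing moved the called genes to different degrees. Pfkfb3 lay between 1.62 and 2.37, G6pdx between -2.63 and -1.73, and Adm between 1.82 and 5.07. Of the 37 measured genes, 27 kept their sign under every setting that gave them a value, all 10 called genes among them, and 10 turned under at least 1.

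**Figure D5:**
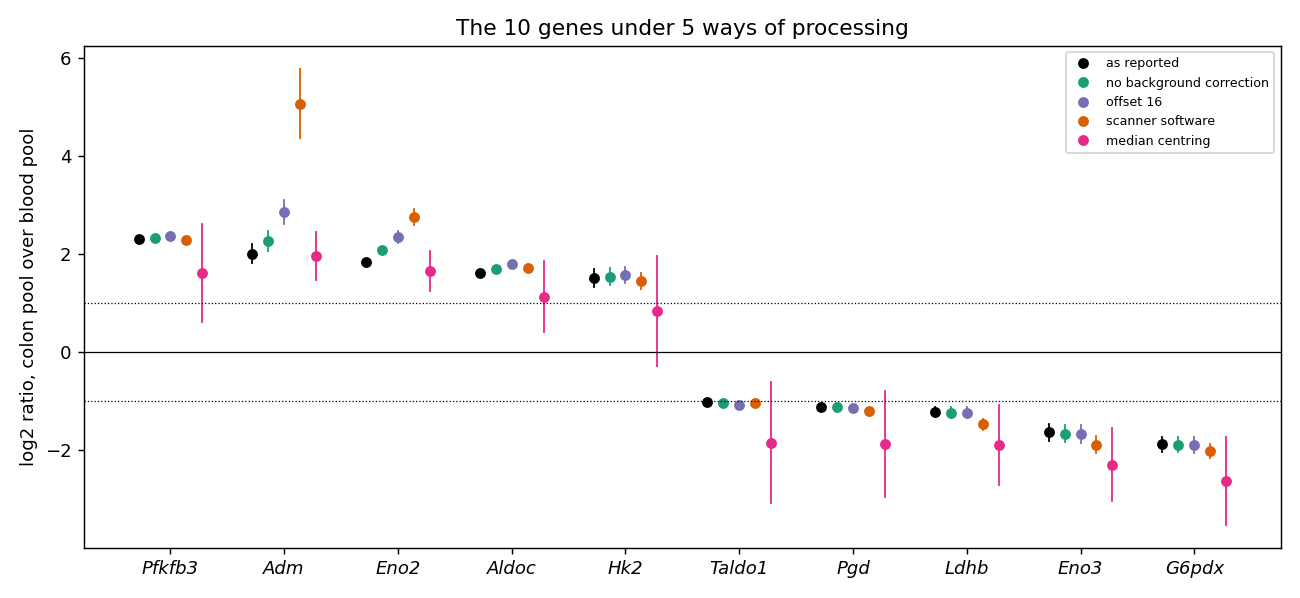
Log2 ratio (colon pool over blood pool) of each called gene under 5 ways of processing, the reported one in black, with points at the mean of the 2 arrays and bars from one array's value to the other's. No mean crosses 0, and the bars are longest under median centring for every gene but Adm. Adm lies highest with the scanner software's ratio of 5.07, where its bar is longest, from 4.36 to 5.78.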

How the data were processed

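Per the labels' protocols, 25 ng of total RNA per pool was amplified with an oligo-dT primer, and per the file headers the 2 Agilent arrays carry 60-base probes (design 026655). The deposited scanner files give, for every spot and channel, a mean intensity and the median of the local background, not normalized, per the file headers. A log10 ratio of Cy5 over Cy3 computed by the software, and its flags for spots well above background, are given too, per the file headers. The submitters' processing notes name Agilent Feature Extraction 10.5.1.1, and the file headers name 10.7.3.1. The deposited value table holds log10 ratios equal to the software's, turned to colon over blood, with a largest difference of 4.81e-08. The median of both its columns is 0.

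Background was corrected by normexp with an offset of 50, then loess was applied within arrays, giving controls and outlier spots a weight of 0 (limma 3.58.1, R 4.3.3). The offset draws the ratios of dim probes towards 0. For array 2 the sign was turned so that both arrays read colon over blood. Levels per pool were scaled by Aquantile after loess. Spots of a probe were averaged, which left 39424 probes, of which 26053 were named through RefSeq accessions of GRCm38, 8634 by the name in the file and 4737 not at all. The probe of highest mean intensity gave a gene's value. Median intensities were 67.1 to 96.6 in the colon pool and 64.2 to 79.9 in the blood pool over a background of 40.5 to 43. The small number of arrays limits the precision. The sources do not say if the extracts were shared between arrays, which were counted as 1 replicate, and no test was made.

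The members, the other gene lists and the rules were chosen with earlier results of these data known. All 38 genes could be named. From the other lists the rule took the sort genes and up to 3 genes per direction with the largest ratios past the size rule, and any further gene of those lists was chosen after its values were seen. The 12 alternatives tried were median centring, an offset of 16, no background correction, the value table, the software's ratios, no filter on dim probes, a filter on both pools, the mean over probes, a threshold of 1.5-fold or 4-fold, and each array alone. A gene of the hypoxia target list is not reported here and was left out of that list's counts.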

Additional observations from a re-analysis of the deposited data

How the results depend on the processing

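The list gave 10 calls, 5 higher and 5 lower in the colon pool, among 2920 calls over all genes. The ratio that each alternative gave for a called gene kept its direction, although under median centring Hk2 turned on array 2. Median centring gave 5 calls, 2 higher (Adm and Eno2) and 3 lower (Eno3, G6pdx and Ldhb), with 1695 calls over all genes, and the list's median moved to -0.65. Under it Hk2, Pfkfb3, Aldoc, Pgd and Taldo1 lost the call, as the arrays moved apart, with values of 1.96 and -0.28 for Hk2. The software's ratios and the equal value table gave 8 lower calls, 5234 calls over all genes and a median of -0.40 for the list. Of all calls 76.1% were higher with loess, 67.1% with median centring and 60.5% with the software's ratios. Relative to the median of all genes, the list's median was -0.13 with loess, -0.37 with median centring and -0.28 with the software's ratios. The mean over probes gave a median of -0.0916 for the list. A threshold of 1.5-fold gave 16 calls, 10 of them lower, and 5204 over all genes, and one of 4-fold gave 1 call, Pfkfb3, which was higher, 0 lower, and 1083 over all genes. Each array alone gave 11 calls, 5 higher and 6 lower, with 3239 to 3495 over all genes and a median of -0.08 to -0.05. Requiring both pools above background removed Adm. The causes were not tested. No paired analysis was possible because both arrays hold the same pools and count as 1 replicate. Signal over background limits the dim genes, among them Fbp1, Pfkfb2, Egln1 and Adm. Eno2 was also dim in the blood pool, at 110.9 and 80.3, though flagged above background on both arrays. Its ratio was 1.85 as reported, 2.34 with an offset of 16 and 2.76 with the software's ratios.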
